A study of Mus musculus with 16 samples.

Results

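The 9 genes of the B lymphocyte programme were read out in mouse liver RNA: Cd79a, Cd79b, Ms4a1, Pax5, Ighm, Ighd, Fcrla, Cr2 and Blk. They were chosen by symbol, as the rows of the gene table that carry one of these names, and all 9 were found among 18209 named genes. Whole livers of 16 mice aged 20 days were sequenced, 4 in each of 4 genotypes. Every mouse carried Trsp fl/fl, a floxed allele of the selenocysteine tRNA gene that is required to make selenoproteins. Trsp fl/fl mice served as controls, and Trsp fl/fl::AlbCre mice lost the allele where the albumin promoter drives Cre, which is in hepatocytes. Both genotypes were also present on the Keap1 C226S&C613S homo background, in which both copies of the gene, in the whole animal, encode a KEAP1 with cysteines 226 and 613 replaced by serine. KEAP1 is the sensor that keeps the transcription factor NRF2 low. Livers with these substitutions are called KEAP1 mutant here, and the others KEAP1 normal. Cre was therefore not driven in B cells in any genotype, whereas the KEAP1 substitutions were present in B cells too. The study asked how far these cysteines carry the response of the liver to a lack of selenoproteins, and the B-cell genes were followed across the same comparisons.

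B cells recognise antigen through membrane immunoglobulin, which signals through a pair of attached chains, and a Src-family kinase is among the first enzymes to act on those chains. In the mouse the fetal liver is a site of B-cell formation, which moves to the bone marrow around birth, and the liver later holds a small population of resident and passing B cells. In RNA of whole tissue, fewer cells of a type and less RNA per cell cannot be told apart.

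Promoter sequences of 4 members, Cd79a, Pax5, Fcrla and Cr2, were found by symbol in the RefSeq table for GRCm38.p6. The 250 bases before each start were searched on both strands for short motifs known from B-cell promoters. Printed are bases before the start of Pax5 and Cd79a, the members with the smallest p-values below, and of Cr2, which followed the other members least. The capitals mark E-box letters CANNTG, to which E2A-type factors bind, and the letters GAGGAA or their reverse complement TTCCTC, a core read by PU.1-type factors.
Cd79a, chr7:24897247-24897380, plus strand: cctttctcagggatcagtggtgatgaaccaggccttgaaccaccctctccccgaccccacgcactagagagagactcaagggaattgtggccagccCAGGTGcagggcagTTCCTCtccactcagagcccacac
Pax5, chr4:44710695-44710844, minus strand: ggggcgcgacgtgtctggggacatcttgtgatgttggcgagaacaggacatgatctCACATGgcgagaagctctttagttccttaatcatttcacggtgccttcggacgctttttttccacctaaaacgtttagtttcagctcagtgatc
Cr2, chr1:195176720-195176869, minus strand: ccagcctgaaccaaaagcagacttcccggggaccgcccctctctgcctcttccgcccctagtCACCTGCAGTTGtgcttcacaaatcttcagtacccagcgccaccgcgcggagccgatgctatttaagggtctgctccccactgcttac
The Cd79a stretch ends 117 bases before the table's start, where the GENCODE gene model begins. An E-box was present in the 250 bases of 4 of 4 members and of 66.2% of all 32851 promoters. GAGGAA was present in Cd79a and Fcrla and in 23.3% of all promoters. The octamer ATGCAAAT, known from immunoglobulin promoters, was in none of the 4 windows and in 1.60% of all promoters. The palindrome CCCNNGGG, read by EBF1-type factors, was likewise in none of the 4 and in 11.8% of all. Letters that match a motif do not show that a factor binds there, and a window without them says nothing of the factor.

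Each library held between 11386723 and 19164130 recovered reads, of which albumin took from 4.86% to 10.75%. Levels are given as normalized counts, that is, reads divided by the size factor of the library, in which 1 read is worth between 0.816 and 1.31. The B-cell genes are rare in this tissue: their 9 counts summed to between 140 and 778 per library. Replicate 1 of KEAP1 mutant Trsp fl/fl::AlbCre stood apart, with 28799 reads of Xist, the RNA that coats the inactive X chromosome, against 22 to 50 in the other 15. It had 2 reads on 4 Y-linked genes, against 1830 to 3066, although all mice are labelled male. For the main results that use it, the values without it are given too. The labels do not say whether mice of a genotype share a litter.

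The summed level of the members was higher in most KEAP1 mutant livers than in the KEAP1 normal livers. The sum of the 9 normalized counts was 178 ± 43.1 (SD, n = 4) in controls, 194 ± 20.4 (SD, n = 4) in Trsp fl/fl::AlbCre, 510 ± 180 (SD, n = 4) in KEAP1 mutant Trsp fl/fl and 376 ± 159 (SD, n = 4) in KEAP1 mutant Trsp fl/fl::AlbCre. The lowest and highest library sums were 140 and 240 in the first genotype, 170 and 215 in the second, 387 and 778 in the third, and 219 and 573 in the fourth. The third genotype did not overlap with either KEAP1 normal genotype. The fourth did not overlap with Trsp fl/fl::AlbCre, but overlapped with the controls through its replicate 1. Without that library the fourth ran from 280 to 573, with a mean of 429 ± 147 (SD, n = 3). These sums are a description without a test, because the genes were chosen as a list. Ighm made up from 36.6% to 52.2% of the sum, and without it the library sums were 88.8 to 143, 88.1 to 123, 230 to 421 and 131 to 322 in the same order.

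**Figure D1:**
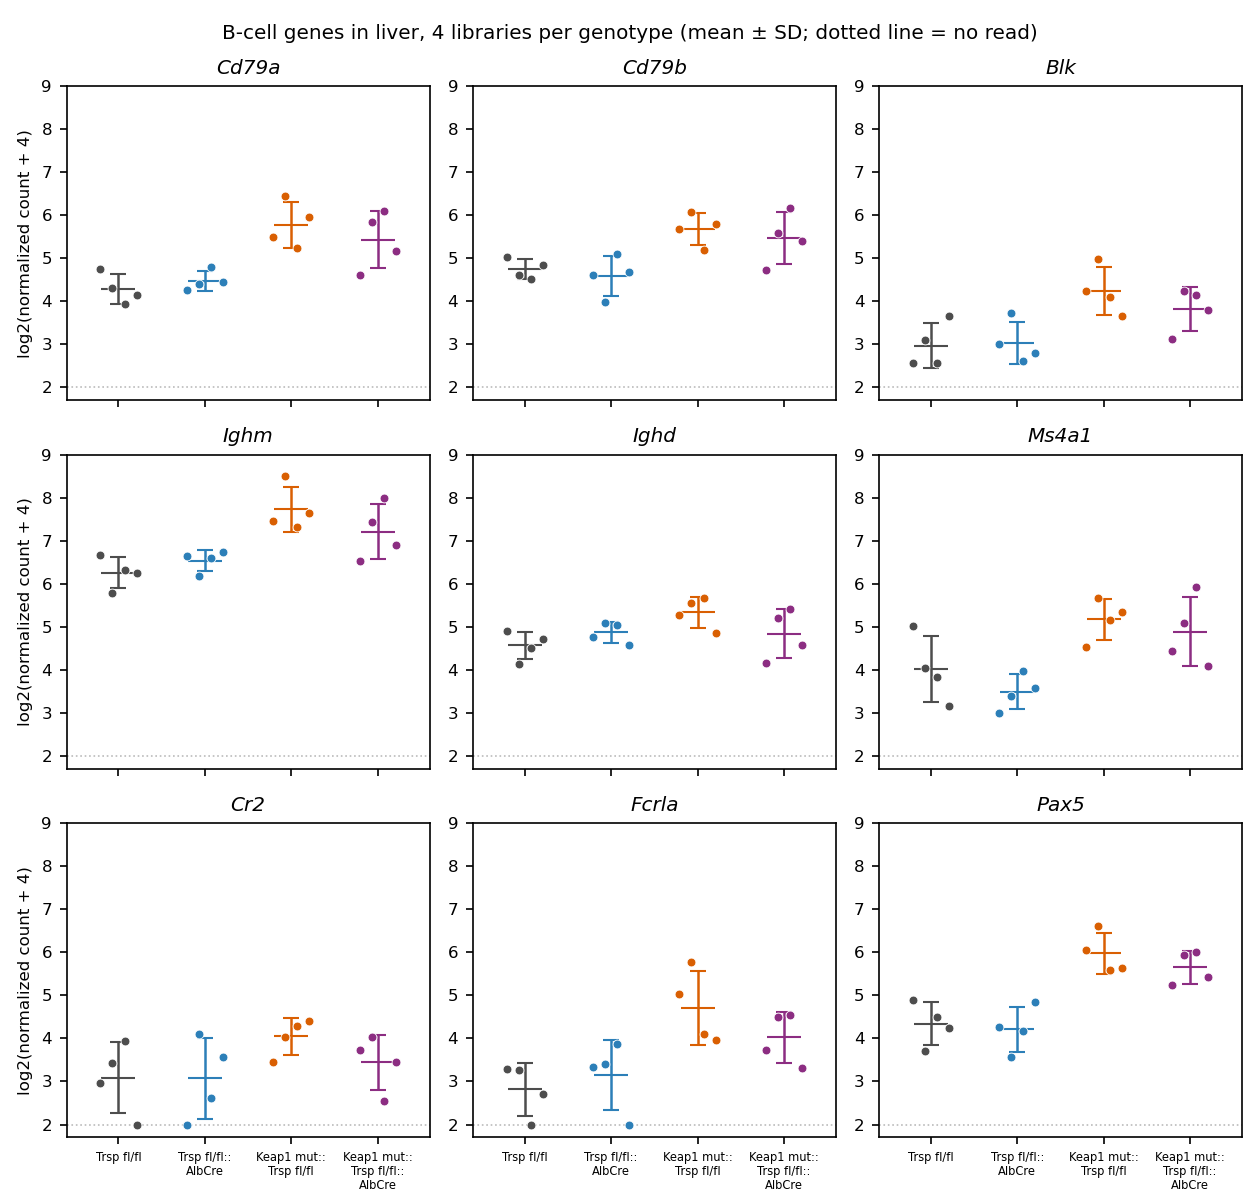
Level of each of the 9 B-cell genes, as log2(normalized count + 4) on the y axis, in the 4 genotypes on the x axis; points are libraries (n = 4), bars are mean ± SD, the dotted line is the value without a read, and Keap1 mut stands for Keap1 C226S&C613S homo. Pax5 is the gene whose 8 KEAP1 mutant libraries all lie above its 8 KEAP1 normal libraries, and Cr2 overlaps across all genotypes.

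limma was run on the log2 values of 15781 genes, all 16 libraries in one fit. A call required a log2 fold change beyond 1 in either direction together with a Benjamini-Hochberg adjusted p under 0.01, the thresholds of the study. Log2 fold changes are on the scale of log2(normalized count + 4), which understates the change of low genes. A gene was tested when its normalized count reached 10 in at least 4 of the 16 libraries, and all 9 members passed. In the 8 KEAP1 normal libraries that level was reached in 8 libraries for Cd79a, Cd79b, Ighm and Ighd, in 6 for Pax5, in 4 for Ms4a1, in 2 for Cr2, in 1 for Fcrla and in 0 for Blk. Cr2, Fcrla and Blk thus passed through the KEAP1 mutant libraries, so that counts over the members are descriptions.

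Cd79a encodes Ig-alpha, a signalling chain of the B-cell receptor. Its normalized counts were 22.8, 15.9, 11.2 and 13.7 in the controls, 15.2, 17.0, 23.6 and 17.7 in Trsp fl/fl::AlbCre, 40.9, 82.5, 33.4 and 58.3 in KEAP1 mutant Trsp fl/fl, and 20.5, 52.9, 64.1 and 32.01 in KEAP1 mutant Trsp fl/fl::AlbCre, in replicate order. All 4 libraries of KEAP1 mutant Trsp fl/fl were above all 8 KEAP1 normal libraries, and replicate 1 of KEAP1 mutant Trsp fl/fl::AlbCre lay among the latter. With Trsp intact the KEAP1 substitutions gave a log2 fold change of 1.49 (SE 0.32, adjusted p = 0.12), which was not called. In the Trsp knockouts the value was 0.96 (SE 0.32, adjusted p = 0.14), and 1.23 (SE 0.31, adjusted p = 0.084) without that replicate.

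Cd79b encodes Ig-beta, the partner of Ig-alpha. Its normalized counts were 28.5, 20.5, 18.8 and 24.9 in the controls, 20.2, 11.8, 30.02 and 21.7 in Trsp fl/fl::AlbCre, 47.0, 63.3, 32.6 and 51.6 in KEAP1 mutant Trsp fl/fl, and 22.4, 44.1, 67.8 and 38.0 in KEAP1 mutant Trsp fl/fl::AlbCre. The libraries kept the pattern of Cd79a, with replicate 1 of the last genotype inside the KEAP1 normal range and the other KEAP1 mutant libraries above it. With Trsp intact the difference was a log2 fold change of 0.93 (SE 0.30, adjusted p = 0.33), and in the knockouts 0.88 (SE 0.30, adjusted p = 0.14). The latter was 1.13 (SE 0.29, adjusted p = 0.086) without that replicate.

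Blk is the B lymphoid kinase of the Src family, which phosphorylates the signalling chains. It was at 1.90, 4.55, 1.88 and 8.70 in the controls, 4.05, 9.18, 2.14 and 2.95 in Trsp fl/fl::AlbCre, 14.8, 27.8, 13.1 and 8.60 in KEAP1 mutant Trsp fl/fl, and 4.66, 14.99, 13.7 and 10.003 in KEAP1 mutant Trsp fl/fl::AlbCre. The 8 KEAP1 normal libraries held 2 to 7 reads each, and the ranges of the genotypes overlapped. Blk had a log2 fold change of 1.27 (SE 0.37, adjusted p = 0.27) with Trsp intact and 0.79 (SE 0.37, adjusted p = 0.28) in the knockouts, or 1.03 (SE 0.38, adjusted p = 0.25) in the knockouts without replicate 1.

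Ighm, the constant region of the IgM heavy chain, was the most abundant member. Its normalized counts were 97.1, 51.2, 75.9 and 72.1 in the controls, 96.2, 68.2, 92.2 and 103 in Trsp fl/fl::AlbCre, 172, 357, 157 and 196 in KEAP1 mutant Trsp fl/fl, and 87.6, 170, 251 and 115 in KEAP1 mutant Trsp fl/fl::AlbCre. Replicate 2 of KEAP1 mutant Trsp fl/fl was the highest of the 16 libraries. That genotype did not overlap with the controls, whereas the knockouts with and without the substitutions overlapped through replicate 1. The log2 fold change was 1.48 (SE 0.31, adjusted p = 0.093) with Trsp intact and 0.67 (SE 0.31, adjusted p = 0.26) in the knockouts, the latter being 0.91 (SE 0.30, adjusted p = 0.20) without replicate 1.

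Ighd is the constant region of the IgD heavy chain, which mature naive B cells make from the same transcription unit as Ighm. It was at 25.7, 13.7, 18.8 and 22.4 in the controls, 23.3, 30.2, 28.9 and 19.7 in Trsp fl/fl::AlbCre, 34.8, 43.2, 46.5 and 24.9 in KEAP1 mutant Trsp fl/fl, and 14.0, 32.6, 38.5 and 20.0 in KEAP1 mutant Trsp fl/fl::AlbCre. The ranges overlapped in every comparison. The log2 fold change was 0.77 (SE 0.28, adjusted p = 0.41) with Trsp intact and -0.03 (SE 0.28, adjusted p = 0.97) in the knockouts, where its 95% confidence interval ran from -0.62 to 0.57. Ighd was the member with a negative value in the knockouts, and leaving out replicate 1 turned it to 0.19 (SE 0.27, adjusted p = 0.80).

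Ms4a1 encodes CD20, a surface protein of B cells before the plasma cell stage. Its normalized counts were 28.5, 12.5, 10.3 and 4.97 in the controls, 4.05, 6.56, 11.8 and 7.87 in Trsp fl/fl::AlbCre, 19.1, 47.0, 31.8 and 36.3 in KEAP1 mutant Trsp fl/fl, and 17.7, 29.98, 56.8 and 13.0 in KEAP1 mutant Trsp fl/fl::AlbCre. Replicate 1 of Trsp fl/fl was the highest KEAP1 normal library and overlapped with KEAP1 mutant Trsp fl/fl, whereas the knockout groups were apart. Ms4a1 had a log2 fold change of 1.16 (SE 0.43, adjusted p = 0.41) with Trsp intact and 1.40 (SE 0.43, adjusted p = 0.10) in the knockouts, or 1.54 (SE 0.46, adjusted p = 0.15) without replicate 1.

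Cr2 encodes the complement receptor CD21, which is found on B cells and on follicular dendritic cells. It was at 3.81, 6.83, 11.2 and 0 in the controls, 0, 13.1, 2.14 and 7.87 in Trsp fl/fl::AlbCre, 6.96, 12.5, 15.5 and 17.2 in KEAP1 mutant Trsp fl/fl, and 9.32, 12.3, 1.83 and 7.003 in KEAP1 mutant Trsp fl/fl::AlbCre. The 4 genotypes overlapped, and 1 library of each KEAP1 normal genotype had no read. A count of 0 allows up to 3 reads. The log2 fold change was 0.96 (SE 0.49, adjusted p = 0.58) with Trsp intact and 0.37 (SE 0.49, adjusted p = 0.73) in the knockouts, or 0.27 (SE 0.54, adjusted p = 0.87) without replicate 1.

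Fcrla encodes an Fc receptor-like protein that stays inside B cells. Its normalized counts were 5.71, 5.69, 0 and 2.49 in the controls, 6.07, 6.56, 10.7 and 0 in Trsp fl/fl::AlbCre, 28.7, 50.8, 13.1 and 11.47 in KEAP1 mutant Trsp fl/fl, and 9.32, 18.5, 19.2 and 6.002 in KEAP1 mutant Trsp fl/fl::AlbCre. With Trsp intact the groups did not overlap, and in the knockouts they did. The log2 fold change with Trsp intact, 1.90 (SE 0.48, adjusted p = 0.20), had the largest size among the 9 members and rested on 13 reads over the 4 controls against 114 over the 4 mutants. In the knockouts it was 0.87 (SE 0.48, adjusted p = 0.37), and 0.96 (SE 0.54, adjusted p = 0.47) without replicate 1.

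Pax5 is the transcription factor that commits precursors to the B lineage and activates Cd79a and other genes of this list. It was at 25.7, 9.10, 18.8 and 14.9 in the controls, 15.2, 7.87, 13.9 and 24.6 in Trsp fl/fl::AlbCre, 62.6, 94.0, 44.1 and 45.9 in KEAP1 mutant Trsp fl/fl, and 33.6, 57.3, 60.5 and 39.0 in KEAP1 mutant Trsp fl/fl::AlbCre. Each of the 8 KEAP1 mutant libraries, replicate 1 of the last genotype included, was above each of the 8 KEAP1 normal libraries. With Trsp intact the log2 fold change was 1.64 (SE 0.32, adjusted p = 0.082), and in the knockouts it was 1.44 (SE 0.32, adjusted p = 0.029), which passes an adjusted p of 0.05 and not the threshold of 0.01. Without replicate 1 the latter was 1.58 (SE 0.35, adjusted p = 0.044).

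Counted together, 0 of 9 members were called for the KEAP1 substitutions with Trsp intact, where 0.0127% of all tested genes were called, and 0 of 9 in the knockouts, where 0.57% were. limma-voom, the same comparisons on the recovered reads scaled by library totals, with weights for their precision, also called 0 in both. At an adjusted p under 0.05, 1 of 9 passed in the knockouts, Pax5, against 1.2% of all genes. Without replicate 1 of KEAP1 mutant Trsp fl/fl::AlbCre 0 were called in the knockouts, with values from 0.19 for Ighd to 1.58 for Pax5 and a median of 1.03. At an unadjusted p under 0.05, 8 of 9 members were higher with Trsp intact, all but Cr2, against 4.32% of all genes tested, and 6 of 9 in the knockouts, against 8.45%. The groups did not overlap, with the mutants higher, for 5 members with Trsp intact (Cd79a, Cd79b, Ighm, Fcrla and Pax5), against 3.19% of all genes, and for 2 in the knockouts (Ms4a1 and Pax5), against 4.53%. The median log2 fold change of the members was 1.27 with Trsp intact and 0.87 in the knockouts, while the medians over all tested genes were -0.01 and 0.01. Without Cr2, Fcrla and Blk the members' medians were 1.32 and 0.92.

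**Figure D2:**
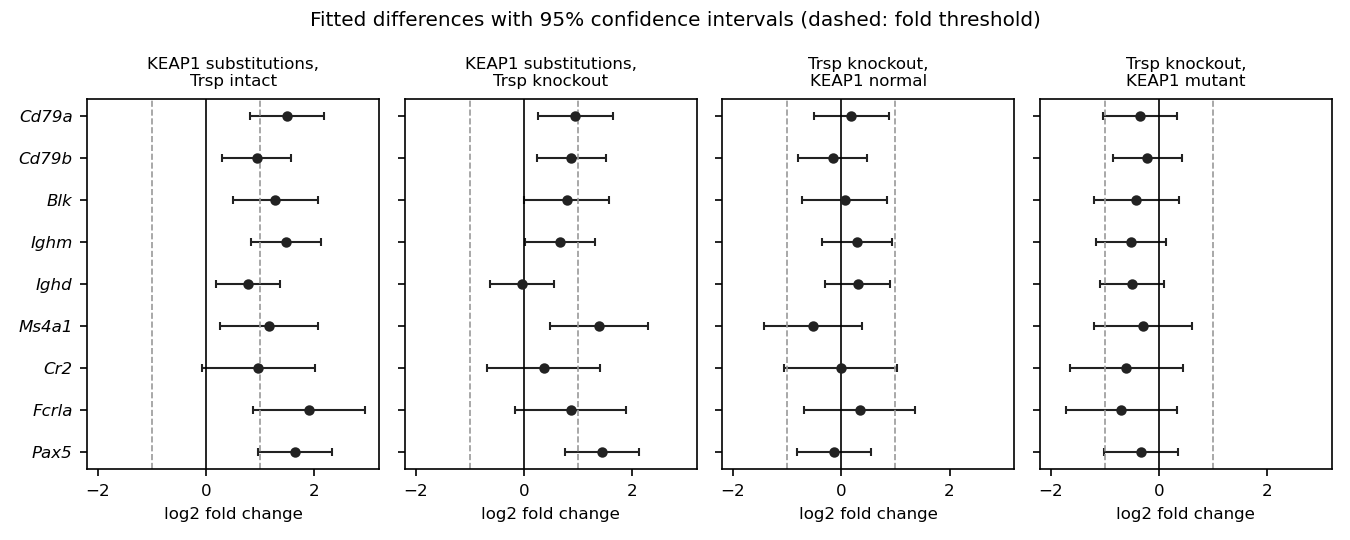
Fitted log2 fold change (x axis) of each of the 9 genes (y axis) in the 4 comparisons between genotypes, with points for the estimates, bars for their 95% confidence intervals and dashed lines at the fold threshold of 1 in either direction. The estimates for the KEAP1 substitutions lie to the right of 0 for 9 genes with Trsp intact and for 8 in the knockouts, and every interval for the Trsp knockout includes 0.

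Loss of Trsp in hepatocytes gave no call. In the KEAP1 normal livers 0 of 9 members were called, against 0.215% of all tested genes, with 5 values above and 4 below 0, from -0.53 for Ms4a1 to 0.34 for Fcrla and a median of 0.07. In the KEAP1 mutant livers 0 of 9 were called, against 0.171%, and all 9 values were below 0, from -0.69 for Fcrla to -0.22 for Cd79b, with a median of -0.41. At an unadjusted p under 0.05 there were 0 members in either comparison, against 11% and 13.6% of all genes, and limma-voom called 0. For Ighm in the KEAP1 normal livers the 95% interval ran from -0.36 to 0.93, and in the KEAP1 mutant livers from -1.17 to 0.13. Without replicate 1 of KEAP1 mutant Trsp fl/fl::AlbCre, 0 members were called in the mutants, and the values ran from -0.70 for Cr2 to 0.03 for Cd79b, with a median of -0.18.

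An interaction term tested whether loss of Trsp acted differently on the KEAP1 normal and KEAP1 mutant background. Of the members, 0 of 9 were called, against 0.057% of all tested genes, with 0 at an unadjusted p under 0.05, against 10.8%, and 0 by limma-voom. The values were below 0 for 8 members and above 0 for Ms4a1, with a median of -0.54. When replicate 1 of KEAP1 mutant Trsp fl/fl::AlbCre was left out, 7 were below 0, Cd79b and Ms4a1 were above, and the median was -0.27. Fcrla had the lowest, -1.03 (SE 0.68, adjusted p = 0.58), and Ighd the smallest p, with -0.80 (SE 0.40, adjusted p = 0.49). The difference between the KEAP1 substitution values with Trsp intact and in the knockouts did not pass the test for any member.

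The KEAP1 substitution effect was also averaged over both Trsp states, 8 libraries against 8 in the same fit. This comparison was chosen after the values had been seen, so its p-values are descriptions, and the other fits reuse the same libraries. Of the 9 members, 2 rose, against 0.158% of all tested genes called higher, and 7 were higher at an unadjusted p under 0.05, against 7.69%. Pax5 rose with a log2 fold change of 1.54 (SE 0.23, adjusted p = 0.0014), which is 2.91-fold, and Cd79a with 1.22 (SE 0.23, adjusted p = 0.0097), which is 2.34-fold. Pax5 was called in 24 of 24 other fits, with adjusted p from 0.0011 to 0.0084, and was higher in 8 of 8 libraries, a separation shown by 0.101% of all genes. Cd79a was close to the threshold and was called in 5 of 24, with adjusted p from 0.0029 to 0.027. limma-voom called Pax5 (adjusted p = 0.0033) and not Cd79a (adjusted p = 0.018). Without replicate 1 of KEAP1 mutant Trsp fl/fl::AlbCre the values were 1.61 for Pax5 and 1.36 for Cd79a (adjusted p = 0.0029).

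The remaining members did not pass in that average. Ighm was at 1.08 (SE 0.22, adjusted p = 0.015), and it passed without replicate 1 of KEAP1 mutant Trsp fl/fl::AlbCre, with 1.19 (SE 0.205, adjusted p = 0.0070). Ms4a1 was at 1.28, Fcrla at 1.38, Blk at 1.03 and Cd79b at 0.91, with adjusted p from 0.039 to 0.056. Cr2 was at 0.67 and Ighd at 0.37, with adjusted p of 0.36 and 0.37 and 95% intervals from -0.07 to 1.41 and from -0.05 to 0.79. For the Trsp knockout averaged in the same way, 0 of 9 were called, against 0.266% of all genes, all 9 values were below 0, and adjusted p lay between 0.61 and 0.93, with 0 at an unadjusted p under 0.05, against 13.8%, and 0 by limma-voom. With that replicate left out, 7 of those values were below 0.

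The spread within a genotype was set beside that of other genes, with all libraries. Replicate 1 of KEAP1 mutant Trsp fl/fl::AlbCre, the lowest of its genotype for 6 members, is included, and these SDs were not computed without it. The median SD of the members' log2 values was 0.50 in Trsp fl/fl, 0.46 in Trsp fl/fl::AlbCre, 0.48 in KEAP1 mutant Trsp fl/fl and 0.60 in KEAP1 mutant Trsp fl/fl::AlbCre. Over 6741 genes whose mean level lay within the members' range the medians were 0.38, 0.39, 0.34 and 0.36. The members' SD was at the median 1.65 and 1.60 times the SD expected from counting reads in the KEAP1 normal genotypes, and 2.21 and 2.31 times in the KEAP1 mutant genotypes. It was above the counting SD for 8 and 7 members in the former and for 9 and 9 in the latter. For Ighm, the member with the most reads, the ratio was 5.57 and 5.51 in the mutants and 2.13 and 1.62 in the KEAP1 normal genotypes. The counting SD falls as reads rise, and for Ighm it was 0.094 and 0.12 in the former and 0.17 and 0.16 in the latter. The ratio thus depends on the level too, and the backgrounds cannot be compared by it alone.

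The same libraries were high for several members. Replicate 2 of KEAP1 mutant Trsp fl/fl was the highest of its genotype for 7 members and the highest of all 16 libraries for 5. Replicate 3 of KEAP1 mutant Trsp fl/fl::AlbCre was the highest of its genotype for 7, and replicate 1 the lowest for 6. That replicate 1 was above the highest KEAP1 normal library for 1 member, Pax5, and replicate 4 of the same genotype for 5, while the other 6 KEAP1 mutant libraries were so for 7 to 9. Among the controls, replicate 1 of Trsp fl/fl was the highest of its genotype for 7 members.

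**Figure D3:**
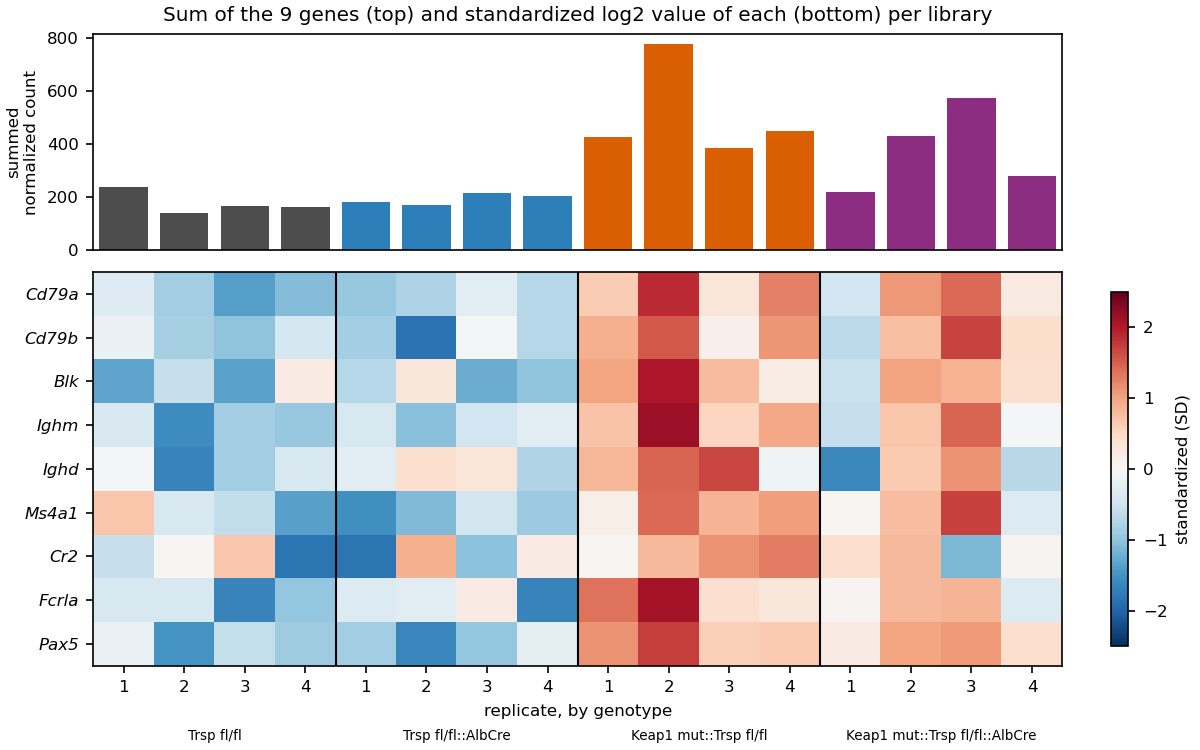
Top, sum of the normalized counts of the 9 genes (y axis) in each of the 16 libraries (bars, coloured by genotype); bottom, the log2 value of each gene in each library, standardized over the 16 libraries, from blue (low) to red (high), with replicate numbers on the x axis. The highest sum is 778 in replicate 2 of KEAP1 mutant Trsp fl/fl, and the lowest KEAP1 mutant sum is 219 in replicate 1 of KEAP1 mutant Trsp fl/fl::AlbCre.

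How closely the members moved together was examined over the 36 pairs, within the 8 KEAP1 normal and within the 8 KEAP1 mutant libraries, with an exact two-sided permutation test of each pair adjusted over the 36. In the KEAP1 normal libraries the median Pearson r was 0.11 and the median Spearman rho 0.04, and 0 pairs passed an adjusted p of 0.05 by either measure. In the KEAP1 mutant libraries the medians were 0.72 and 0.64, and 14 pairs passed by Pearson and 9 by Spearman. Cd79a with Ighm had the highest r, 0.96 (rho 0.98, exact permutation p = 0.00017 and 0.00040, adjusted p = 0.0063 and 0.014), and Cd79a with Cd79b had 0.94 (rho 0.93, exact permutation p = 0.00052 and 0.0022, adjusted p = 0.0083 and 0.020). Without the 2 libraries with sums farthest from the median, these were 0.88 and 0.88, and the median over the 36 pairs was 0.45. Without replicate 1 of KEAP1 mutant Trsp fl/fl::AlbCre, over 7 libraries, the medians were 0.61 and 0.46, 2 pairs passed by Pearson and 0 by Spearman, and 11 and 9 had an unadjusted exact permutation p under 0.05. The number of pairs that passed thus fell when that library was left out. With 7 libraries the test also has less power, and leaving out another single library was not tried. The difference between the backgrounds was not tested. Each set of 8 pools 2 Trsp genotypes whose means were not subtracted, so a difference between these genotypes enters r. For the Trsp knockout the members' median log2 fold change was 0.07 in the KEAP1 normal and -0.41 in the KEAP1 mutant livers. Reads were also fewer in the KEAP1 normal livers, and the part of counting error in r was not tested. A genotype holds only 4 libraries, too few for the relation within it.

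Per kilobase of exon, which allows levels of different genes to be compared, the order in Trsp fl/fl was Ighm at 39.3 ± 9.96 (SD, n = 4) normalized counts per kilobase, Cd79b at 16.2 ± 3.09, Cd79a at 10.9 ± 3.43 and Ighd at 10.6 ± 2.72. Ighm was above Cd79b in every library, while Cd79a and Ighd did not differ beyond their spread. Ms4a1, Fcrla, Pax5, Blk and Cr2 followed between 2.28 and 0.67, with ranges that overlap between neighbours. In KEAP1 mutant Trsp fl/fl Ighm was again first, at 117 ± 48.9, followed by Cd79a at 36.9 ± 14.9 and Cd79b at 33.98 ± 8.86, and Cr2 was last at 1.61 ± 0.55. The lengths were taken from GENCODE M21 gene models, which need not be the transcripts the authors used.

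The genes whose log2 values followed the mean of the 9 standardized members most closely over the 16 libraries were Rag1, with r = 0.94, and Spib, with r = 0.93. After the genotype means were subtracted these were 0.79 and 0.79, and without replicate 1 of KEAP1 mutant Trsp fl/fl::AlbCre they were 0.94 and 0.93. Rag1 encodes part of the recombinase that joins antigen receptor gene segments in lymphocyte precursors, and Spib is an Ets-family factor of B cells and plasmacytoid dendritic cells. The next were Chst3, Myb, Gvin-ps6, Cfb, Cx3cr1, Prtn3, Cyfip2 and Irf4, with r from 0.90 down to 0.85. All these are descriptions over libraries that share their genotypes. The members themselves had r from 0.75 for Ighd to 0.97 for Cd79a, except Cr2 with 0.41, and each member is part of the mean it is set against.

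Rag1 was at 1.90, 3.41, 0 and 1.24 in the controls, 2.02, 1.31, 0 and 0.98 in Trsp fl/fl::AlbCre, 28.7, 72.9, 17.9 and 15.3 in KEAP1 mutant Trsp fl/fl, and 2.80, 12.3, 20.2 and 6.002 in KEAP1 mutant Trsp fl/fl::AlbCre. It was near 0 in the KEAP1 normal livers, and its highest library was again replicate 2 of KEAP1 mutant Trsp fl/fl. Rag1 reached a normalized count of 10 in 0 of the 8 KEAP1 normal and 6 of the 8 KEAP1 mutant libraries, so it entered the fit through the latter. Its log2 fold change for the KEAP1 substitutions, given without a test because Rag1 was picked for following the members, was 2.54 with Trsp intact, 1.35 in the knockouts and 1.65 in the knockouts without replicate 1.

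The wider B-cell lists had smaller medians than the 9 genes. Of 18 genes listed for B-cell precursors, 13 were in the table and tested, with a median of 0.12 for the KEAP1 substitutions with Trsp intact and 0.34 in the knockouts, or 0.35 without replicate 1. Vpreb1, Vpreb2, Igll1, Rag2 and Dntt are not analysed here. Over both Trsp states 1 of the 13 was called higher, Rag1, which was picked as above. At an unadjusted p under 0.05, 5 were higher, against 7.69% of all genes. Among the 5 were Rag1 and Myb, both picked for following the members, so the call and the count are descriptions. Myb, a factor of blood cell precursors that is among the genes most like the members, was at 1.55. It reached a normalized count of 10 in 0 of the 8 KEAP1 normal and 6 of the 8 KEAP1 mutant libraries. Like Rag1, it thus entered the fit through the latter. Of 14 B-cell transcription factors, all tested, 14 of 14 values were above 0 over both states with a median of 0.47, where 49.5% of all tested genes were above 0. Of the 14, 9 were higher at an unadjusted p under 0.05, against the same 7.69%, and 1 was called higher. This was Pou2af1, a coactivator of octamer-dependent transcription, with 1.64 (SE 0.30, adjusted p = 0.0081). It was between 2.62 and 19.9 in the KEAP1 normal and between 24.2 and 85.3 in the KEAP1 mutant libraries, which did not overlap. Without replicate 1 of KEAP1 mutant Trsp fl/fl::AlbCre Pou2af1 was at 1.72 (adjusted p = 0.01) and was not called. Spib was at 1.26, and at 1.40 without that library, given without a test. Like Rag1, Spib and Irf4 of this list had been picked for following the members, so the counts over the list are descriptions. limma-voom called 0 genes of either list.

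Of 21 genes of B-cell receptor signalling, 20 values were above 0 with Trsp intact (median 0.41) and 15 in the knockouts (median 0.13). Neither limma nor limma-voom called any in either comparison. At an unadjusted p under 0.05, 6 and 1 were higher, against 4.32% and 8.45% of all genes, and 1 was lower in the knockouts. Without replicate 1 the median in the knockouts was 0.08. The abundant members of that list, Cd81 and Pik3ap1, which other liver cells also express, were at -0.04 and -0.06 over both states, and at 0.01 and -0.04 without replicate 1. Of 24 tested genes among 30 other mature B-cell genes, 19 and 20 values were above 0 in the Trsp-intact and knockout comparisons. Their medians were 0.37 and 0.24 (0.32 in the knockouts without replicate 1). At an unadjusted p under 0.05, 3 and 2 were higher, against the same 4.32% and 8.45%, and limma and limma-voom called 0. Fcmr, the receptor for IgM, was at 0.98 (SE 0.29, adjusted p = 0.10) over both. From the list for immunoglobulin constant regions and plasma cells, 5 genes were tested: Jchain, Xbp1, Prdm1, Sdc1 and Derl3. Its constant region genes, Igha, Ighg1, Ighg2b, Ighg2c, Ighg3 and Ighe, are not analysed here. Of the 5, 0 were called over both states by limma or limma-voom. At an unadjusted p under 0.05, 3 were higher, or 1 without replicate 1, against 7.69% of all genes with all libraries. Jchain, which links IgM units in plasma cells, was at -0.09 (SE 0.21, adjusted p = 0.87).

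Lists of genes typical of other liver and blood cells were read in the same way. Of 13 tested neutrophil genes, 12 values were above 0 with Trsp intact and 13 in the knockouts, with medians of 0.84 and 1.99, the latter being 2.05 without replicate 1. Over both states 1 was called higher, Prtn3, a protease of early granulocytes that is also among the genes most like the members, with 2.08. Prtn3 reached a normalized count of 10 in 0 of the 8 KEAP1 normal and 7 of the 8 KEAP1 mutant libraries. It thus entered the fit through the latter. At an unadjusted p under 0.05, 11 of the 13 were higher, against 7.69% of all genes, and limma-voom called 0. The summed neutrophil counts were 430 to 1758 in Trsp fl/fl, 372 to 636 in Trsp fl/fl::AlbCre, 675 to 2254 in KEAP1 mutant Trsp fl/fl and 961 to 2831 in KEAP1 mutant Trsp fl/fl::AlbCre. The neutrophil genes thus had their larger median in the knockouts, and the B-cell genes with Trsp intact; over both states the medians were 1.43 and 1.08.

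T-cell genes (12 of 20 tested) had medians of 0.44 with Trsp intact and -0.20 in the knockouts, with sums of 304 to 476, 222 to 325, 311 to 520 and 217 to 345 in the 4 genotypes in the order given above. NK-cell genes (6 of 12 tested) had medians of 0.70 and -0.21, and sums of 135 to 248, 108 to 205, 196 to 431 and 92.0 to 181. For the Trsp knockout in the KEAP1 mutant livers the medians were -0.68 for T cells and -0.90 for NK cells, beside -0.41 for the 9 B-cell genes, and without replicate 1 they were -0.59, -0.86 and -0.18. Over both Trsp states the T-cell median was 0.05, the NK-cell median 0.25 and the Kupffer-cell median 0.10.

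Erythroid genes (12 of 14 tested) had medians of -0.92 and 0.52, with sums of 33969 to 64827, 14901 to 35294, 12968 to 25637 and 15599 to 96717. The median in the knockouts was -0.02 without replicate 1. Hepatocyte genes had medians of 0.14 and -0.30, the latter being -0.13 without replicate 1, and endothelial genes 0.11 and 0.11. The 8 lists of other cell types (neutrophil, T cell, NK cell, Kupffer cell, plasmacytoid dendritic cell, erythroid, hepatocyte and endothelial) held 84 tested genes. Of these, limma called 1 over both states and limma-voom 0. The 1 was Prtn3, which entered the fit through the KEAP1 mutant libraries. Of the 84, 16 had an unadjusted p under 0.05, against 16.1% of all genes, and 11 of the 16 were neutrophil genes. None of the genes of these lists found in the table lacked reads in a whole genotype. The part of other cell types in the B-cell result was not tested.

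**Figure D4:**
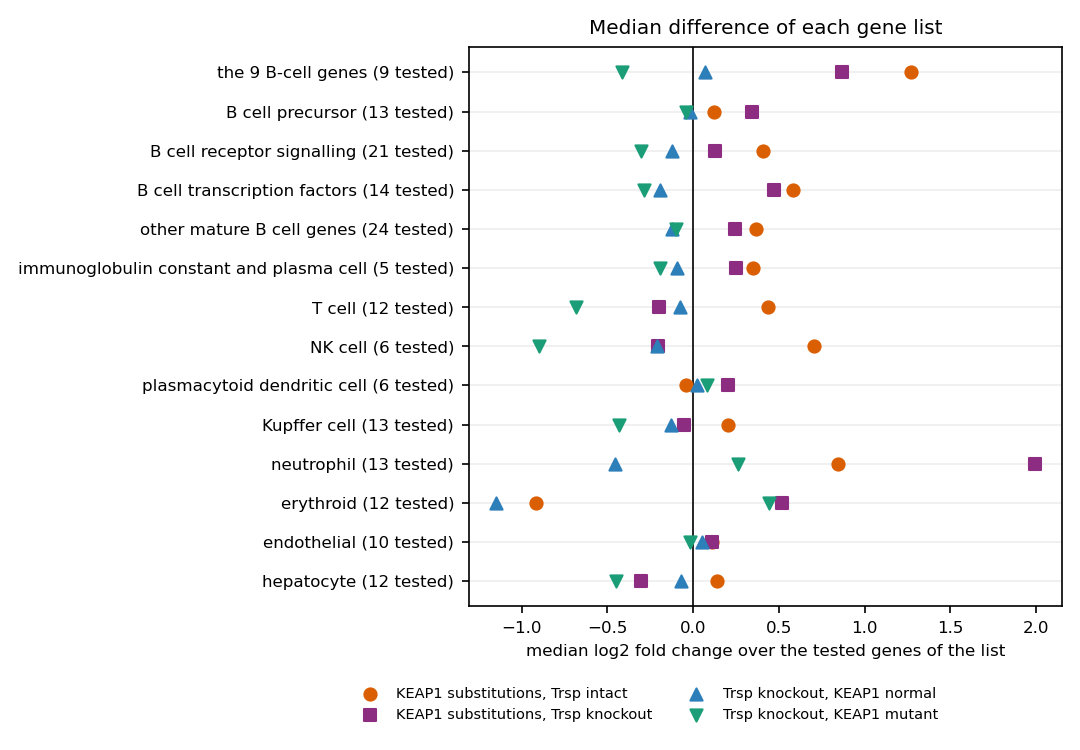
Median log2 fold change (x axis) over the tested genes of the 9 B-cell genes and of 13 other lists (y axis) in 4 comparisons, marked by colour and shape. The 9 B-cell genes lie at 1.27 and 0.87 for the KEAP1 substitutions, and the neutrophil list at 0.84 and 1.99.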

How the data were processed

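RNA of 16 livers was depleted of ribosomal RNA, made into directional libraries and read in pairs; the authors quantified it with Salmon against GENCODE mouse transcripts (version 30) and used the iDEP platform. The deposited table holds log2 values of 18578 rows, which were tested on the table to be log2 of the normalized read count plus 4: undone, 100% of the values up to 60 reads were whole reads (tolerance 0.05). The methods name TPM, which these values are not, so the tests written for TPM or counts were replaced by limma 3.58.1 (R 4.3.3) on the log2 values, with a mean per genotype, eBayes with trend and no covariate. The 369 rows without an identifier held from 0.274% to 0.627% of the reads and were left out. The genome build is not given in the sources used here; coordinates and lengths are from GRCm38. The 9 genes, the lists of cell markers and the tests were chosen with earlier results of these data known. From each list the text names members of the highest mean level or largest SD and those called, and the 10 genes most like the 9. Alternatives were other filters, scalings, constants, limma-voom on recovered reads, a replicate block and leaving out each library. Scripts were tested on simulated data. Counting intervals and floors cover counting error only.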

Additional observations from a re-analysis of the deposited data

How the results depend on the processing

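In 4 of the 5 planned comparisons 0 members were called under each alternative run; for the KEAP1 substitutions in the Trsp knockouts 1 was called, Pax5, at an adjusted p under 0.05. The average KEAP1 substitution effect gave 2 calls, and 1 without a filter, with the filter in at least 1 library, with quantile normalization, by limma-voom, by eBayes without trend or with the replicate block, 4 at an adjusted p under 0.05, and from 1 to 3 when 1 library was left out. The call lost was that of Cd79a, and Pax5 kept its call. Replicate numbers did not pair the livers: of 24 same-number pairs 4 had a correlation over 0.1, from -0.32 to 0.31. The block changed no other call.

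Small differences changed sign. With quantile normalization Cr2 was at 0.054 for the Trsp knockout in the KEAP1 normal livers. With library totals as scaling, Ighd was at 0.079 for the KEAP1 substitutions in the knockouts and Cd79b at 0.063 in the interaction, and with limma-voom these were 0.12 and 0.090, and Cd79a was at 0.0042 for the averaged Trsp knockout. Library totals, which limma-voom used too, moved the median of all genes in the KEAP1 substitution comparison of the knockouts to 0.13 in both fits. Leaving out 1 library gave, for the Trsp knockout in the KEAP1 normal livers, ranges of -0.16 to 0.30 for Blk, -0.33 to 0.040 for Cd79b, -0.37 to 0.35 for Cr2 and -0.34 to 0.083 for Pax5. In the KEAP1 mutant livers Cd79b ran from -0.45 to 0.031. For the KEAP1 substitutions in the knockouts Ighd ran from -0.22 to 0.19. In the interaction Cd79b ran from -0.29 to 0.19, Ms4a1 from -0.11 to 0.52 and Pax5 from -0.41 to 0.020. For the averaged Trsp knockout Cd79a ran from -0.19 to 0.053, Fcrla from -0.31 to 0.017, Ighd from -0.19 to 0.014 and Ighm from -0.25 to 0.0098. The cause was not tested. Cr2, Fcrla and Blk had at most 12 reads in a KEAP1 normal library; what greater depth would change was not tested.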
